A study of Mus musculus with 6 samples.

Results

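The genes described here are 44 mouse genes of mitosis: the CDK1 and cyclin engine, mitotic kinases, the chromosomal passenger complex, the spindle checkpoint, kinetochore and centromere proteins, spindle motors, the cytokinesis machinery and condensin. They were taken from a list of names, and each name was matched through the GENCODE M21 annotation to 1 Ensembl gene ID among the 51912 IDs of the count table. All 44 passed the filter on low counts, as did 19017 genes in all, and all are protein coding. The cells were primary osteoblasts, which build bone, isolated from the skulls of C57BL/6J pups 1 d old with Mark3 flox/flox alleles. Both groups therefore carried the same floxed alleles. The control group, labelled wild-type and called WT (3 libraries), received GFP adenovirus for 24 h. The group labelled Mark3-/- and called Mark3-KO (3 libraries) received CRE adenovirus for 24 h, so the loss of Mark3 and the kind of virus cannot be told apart. Mark3 encodes a kinase that acts on proteins bound to microtubules, and the comparison asks which transcripts differ soon after its deletion. Whether the libraries of each group stem from different cultures or litters is not stated. The p-values therefore speak only to variation among these 6 libraries, and that variation may be technical.

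In mitosis, CDK1 bound to cyclins A and B starts chromosome condensation and spindle assembly. Kinetochores, built on centromeres, attach each chromosome to microtubules, and the spindle checkpoint holds back the anaphase-promoting complex (APC/C) until all are attached. The genes for these proteins are mostly transcribed late in the cell cycle, so their summed level in a culture is widely read as a sign of how many cells are cycling. Their promoters are known for a pair of elements, the CCAAT box, bound by NF-Y, and the cell cycle genes homology region, often TTTGAA, bound by the MuvB core of the DREAM complex, which later joins B-MYB and FOXM1.

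Promoter stretches of 4 members are shown so that these elements can be seen in genes that differed in opposite directions: Smc2, Kif11 and Top2a were higher in Mark3-KO, while Cdc25b was lower. That opposition was seen without correction for the guanine and cytosine (GC) content of transcripts. With the correction, described with the libraries, the log2 fold changes were 0.16, 0.16 and 0.15 for the first 3 genes and 0.18 for Cdc25b. Each is the 150 bases before the transcription start in RefSeq (GRCm38.p6), outside every M21 exon, read 5′ to 3′ on the strand of the gene. They lie at chr4:52439071-52439220 (plus strand, Smc2), chr19:37376232-37376381 (plus, Kif11), chr11:99024190-99024339 (minus, Top2a) and chr2:131186798-131186947 (plus, Cdc25b). Capitals mark TTTGAA or its reverse complement TTCAAA, and CCAAT or its reverse complement ATTGG. The searches were separate, so matches of both motifs could share a base. The stretch of Cdc25b holds CCAAT alone and the others hold both, but the 4 do not stand for their directions. The same window of Ncapd2 and of Bub3, both lower without overlap, holds both motifs. That of Nuf2, higher without overlap, holds neither.
Smc2: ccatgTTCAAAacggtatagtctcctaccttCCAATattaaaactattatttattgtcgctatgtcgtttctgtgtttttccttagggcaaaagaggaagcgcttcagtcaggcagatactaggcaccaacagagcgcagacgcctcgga
Kif11: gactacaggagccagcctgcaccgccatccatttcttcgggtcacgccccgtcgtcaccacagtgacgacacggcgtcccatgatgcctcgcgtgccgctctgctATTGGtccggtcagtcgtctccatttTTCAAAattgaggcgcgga
Top2a: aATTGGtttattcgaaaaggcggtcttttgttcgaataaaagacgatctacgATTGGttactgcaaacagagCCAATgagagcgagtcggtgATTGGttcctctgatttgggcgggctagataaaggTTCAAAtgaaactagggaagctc
Cdc25b: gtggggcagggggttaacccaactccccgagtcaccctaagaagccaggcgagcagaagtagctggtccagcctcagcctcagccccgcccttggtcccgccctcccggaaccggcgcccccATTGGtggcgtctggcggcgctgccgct
Promoters running from 250 bases before to 50 bases after the start were present for 37 of the 44 members (40 promoters). TTTGAA, searched on both strands, was in 72.5% of the members' promoters and in 17.9% of all 32851 mouse promoters of that length. CCAAT, likewise on both strands, was in 75% and 37.4%, and both motifs together were in 65% and 6.95%. The motifs were found among members of either direction. Of the 22 members with a promoter whose Mark3-KO libraries all lay above the WT libraries, 12 held both motifs. The same was true of 4 of the 5 whose Mark3-KO libraries all lay below and of 7 of the 10 whose groups overlapped. A match describes letters in a window and is not evidence of a bound site. Ccna2, Aurkb, Incenp, Spc24, Tpx2, Kif20a and Smc4 had no entry.

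Libraries held between 56925883 and 71445243 counts. Levels are given in CPM on TMM-adjusted library sizes. Mark3 itself was at 113, 118 and 118 CPM with GFP virus (WT) and at 47.6, 52.4 and 44.1 CPM with Cre virus (Mark3-KO). It fell by 1.27 on the log2 scale (SE 0.10), with an edgeR adjusted p of 0.0153, which ran from 0.00223 to 0.128 over the other edgeR fits and missed 0.05 when WT replicate 2 or either of Mark3-KO replicates 2 and 3 was left out, and when WT replicate 1 and Mark3-KO replicate 3 were left out together. Libraries also differed in the level of transcripts rich in GC. Genes in the top decile of transcript GC content (57.2% or more) had a median log2 ratio to their own mean of 1.12, 0.69 and 0.11 in the WT libraries, but -0.19, -0.69 and -0.98 in the Mark3-KO libraries. This difference ran with the groups, so uneven sampling of GC-rich transcripts and a true shift in their expression cannot be told apart. The GC correction takes out a trend of either kind, so corrected values may have lost or gained group difference. The share of mitochondrial counts was 1.05 to 1.66% in WT and 2.07 to 3.22% in Mark3-KO. All 12 osteoblast markers were detected, with a summed level of 22600 to 43900 CPM with GFP virus and 15500 to 22300 CPM with Cre virus. Most of that sum came from Col1a1 and Col1a2 (log2 fold changes -1.74 and -0.74, or -0.43 and 0.13 with GC correction). Named for values that go the other way, Spp1 was higher without overlap (0.34), and Sparc (0.35) and Postn (0.15) overlapped between groups. With GC correction Spp1 was at -0.05, Sparc at 0.67 and Postn at -0.50. Chondrocyte markers summed to 675 to 1750 and 354 to 588 CPM, with Snorc under 0.1 CPM throughout. Most of that sum came from Col2a1, whose log2 fold change of -1.52 became 0.05 with GC correction. Corrected values of other chondrocyte markers lay on either side of 0, such as Acan (0.55) and Col9a1 (-0.65). Macrophage and osteoclast markers summed to 390 to 445 and 425 to 477 CPM. Skeletal muscle markers summed to 7.45 to 14.1 and 2.62 to 5.97 CPM. Endothelial, adipocyte and red blood cell markers each summed to under 5 CPM in every library, with Cldn5, Adipoq and Hba-a1 under 0.1 CPM. The part of GC content, mitochondrial share and cell makeup in the differences below was not tested. Values corrected for GC content are given beside many of them.

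No member passed the adjusted threshold of 0.05, but most mitotic transcripts lay higher in every Mark3-KO library than in any WT library. Groups did not overlap for 30 members, 25 higher and 5 lower in Mark3-KO. Over all 19017 genes tested, 25.8% were higher without overlap and 27.5% lower, 53.3% together. The members' summed level was 3519, 3731 and 4059 CPM with GFP virus and 4633, 4906 and 4945 CPM with Cre virus. These sums are not corrected for GC content, and that correction took the members' median log2 fold change from 0.35 to 0.10 (0.03 for all genes). In bulk RNA, the number of dividing cells and the amount of these transcripts per cell cannot be told apart.

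By the edgeR quasi-likelihood test, adjusted after Benjamini and Hochberg, 0 of 44 members passed, against 0.216% of all genes (41 of 19017, of which 0.0473% higher and 0.168% lower), and the smallest adjusted p among members was 0.0506. Members with an unadjusted p from 0.000419 (Nuf2) to 0.00641 (Ect2) shared that adjusted value, so it does not rank them. At an unadjusted p under 0.05 there were 24 members higher and 7 lower, against 20.8% and 24.8% of all genes (45.7% together). The DESeq2 Wald test called 23 higher and 4 lower (13.9% and 23.7% of all genes, 37.6% together), while limma-voom called 0 of 44 (0.142% of all genes). Within edgeR, 25 members passed with library size alone as the scaling (23.7% of all genes), 26 with a filter of 1 CPM in 3 libraries (37.4%), and 24 higher and 7 lower at an adjusted p of 0.1 (19.7% and 24% of all genes, 43.7% together). The count depended on single libraries: without WT replicate 3 the edgeR test called 24 higher and 4 lower (12.9% and 20% of all genes, 32.9% together), and without Mark3-KO replicate 1 it called 19 higher and 6 lower (12.1% and 20%, 32.1% together). The median log2 fold change (Mark3-KO over WT) was 0.35 for members and 0.02 for all genes. The lower and upper quartiles were -0.22 and 0.55 for members and -0.55 and 0.40 for all genes. When each library's log2 ratios were corrected for transcript GC content, the members' median became 0.10, with 0.03 for all genes, and 1 member, Cenpb, passed (0.379% of all genes).

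**Figure D1:**
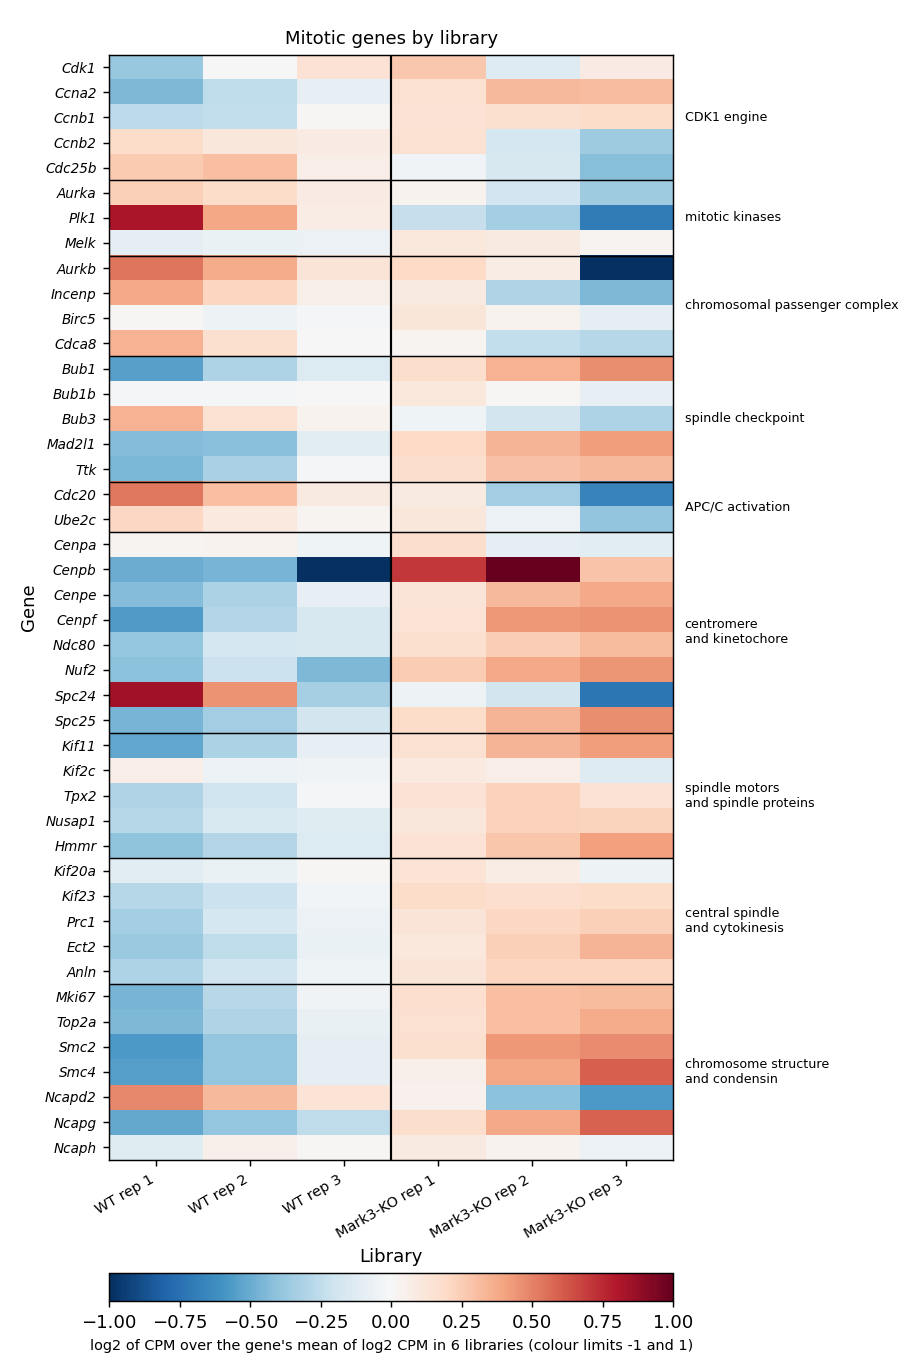
Each cell shows, for 1 of the 44 mitotic genes (in blocks by role) in 1 of 6 libraries, the log2 of CPM over that gene's mean of log2 CPM, with colours limited to -1 and 1. WT replicate 1 held the lowest value of 26 genes and Mark3-KO replicate 3 the highest of 19, while for another set, such as Plk1, Cdc20 and Ncapd2, the colours run the other way.

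The CDK1 engine showed a higher cyclin A2 and cyclin B1 message beside a CDK1 message that overlapped between groups. Ccna2, which encodes cyclin A2, had 92.5, 106 and 119 CPM with GFP virus and 140, 158 and 156 CPM with Cre virus (log2 fold change 0.51, SE 0.12, adjusted p 0.0506). Ccnb1, the cyclin B1 gene, had 82.1, 83.2 and 99.1 CPM with GFP virus and 109, 110 and 112 CPM with Cre virus (0.32, SE 0.10, adjusted p 0.0598). For both cyclins every Mark3-KO library lay above every WT library, as for 25.8% of all genes. That share was 28.6% at 45 to 50% GC, where Ccna2 lies, and 58.6% under 45% GC, where Ccnb1 lies. Cdk1 (chromosome 10, 69335146 to 69352938, GRCm38) had 69.5, 90.3 and 99.9 CPM with GFP virus and 109, 82.5 and 95.7 CPM with Cre virus (0.15, SE 0.17, adjusted p 0.519). Its groups overlapped, with the lowest value in WT replicate 1 and the highest in Mark3-KO replicate 1. Ccnb2, the cyclin B2 gene, had a log2 fold change of -0.24, and Cdc25b, encoding a phosphatase that activates CDK1, one of -0.41. With GC correction Ccna2 measured 0.29 and Ccnb1 -0.02, and Cdc25b turned to 0.18. Ccna2 shares 510 exon bases with Exosc9 on the opposite strand (log2 fold change 0.49). The library kit does not mark strand and the counting of shared reads is not given in the sources used here, so part of that signal is uncertain.

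Among the mitotic kinases, Plk1 and Aurka were lower in every Mark3-KO library than in any WT library. The same was true of 27.5% of all genes and 55.2% of all genes above 50% GC, where both transcripts lie. Plk1, Polo-like kinase 1 (chromosome 7, 122159439 to 122169873), had 63.7, 47.1 and 38.0 CPM with GFP virus and 30.8, 28.5 and 22.2 CPM with Cre virus. At -0.87 (SE 0.22, adjusted p 0.0506) it showed the lowest log2 fold change of the 44 members. Aurka, the kinase that matures centrosomes and spindle poles, had 47.2, 45.4 and 42.3 CPM with GFP virus and 41.0, 34.9 and 31.2 CPM with Cre virus (-0.33, SE 0.13, adjusted p 0.0944). Melk, a kinase often expressed in proliferating cells, was slightly higher without overlap (0.15), as were 25.8% of all genes. After GC correction Plk1 was at 0.02, Aurka at -0.11 and Melk at -0.10. Plk1 shares 156 exon bases with the predicted gene Gm44985 on the opposite strand.

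The chromosomal passenger complex, which corrects faulty attachments and guides cytokinesis, overlapped between groups for each of its 4 genes. Incenp, its scaffold, had 67.0, 59.8 and 53.4 CPM with GFP virus and 54.8, 41.7 and 37.7 CPM with Cre virus (-0.43, SE 0.17, adjusted p 0.0969). Cdca8, which encodes borealin, had 33.9, 29.7 and 26.6 CPM with GFP virus and 27.2, 22.4 and 21.8 CPM with Cre virus (-0.34, SE 0.15, adjusted p 0.123). In both genes only Mark3-KO replicate 1 reached into the WT range. Aurkb, the kinase of the complex, outside the rule for values per library and singled out for them, had a log2 fold change of -0.56 with a wide SE of 0.38, since Mark3-KO replicate 3 stood at 8.18 CPM against 21.4 to 29.4 CPM in the other libraries. Birc5, the survivin gene, was at 0.04. The 4 did not move alike under GC correction, where Incenp turned to 0.25, Birc5 to -0.08, and Cdca8 and Aurkb measured -0.42 and -0.22.

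The spindle checkpoint genes split. Bub1, a kinase recruited to unattached kinetochores (chromosome 2, 127801122 to 127831865), had 49.6, 58.3 and 65.6 CPM with GFP virus and 81.5, 91.5 and 99.3 CPM with Cre virus (0.65, SE 0.14, adjusted p 0.0506). Mad2l1, encoding the MAD2 protein that sequesters CDC20, had 37.7, 38.0 and 47.4 CPM with GFP virus and 58.4, 64.5 and 67.8 CPM with Cre virus (0.63, SE 0.13, adjusted p 0.0506). Neither gene overlapped between groups, and Ttk, the checkpoint kinase MPS1, was likewise higher (0.52). Of all genes 25.8% were higher without overlap, and 58.6% of those under 45% GC, where Bub1, Mad2l1 and Ttk lie. Bub3, the partner that docks BUB1 and BUBR1 to kinetochores, was lower without overlap (-0.35). So were 27.5% of all genes and 10.4% of all genes at 45 to 50% GC, where Bub3 lies. Bub1b, encoding BUBR1, was at 0.03 with overlap. GC correction reduced Bub1 to 0.16, Mad2l1 to 0.10 and Ttk to 0.12, but left Bub3 at -0.46, the lowest corrected value of the 44.

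The activator and the ubiquitin-conjugating enzyme of the APC/C were each lower in 2 of 3 Mark3-KO libraries than in any WT library. Cdc20, the APC/C activator of metaphase (chromosome 4, 118432901 to 118437352), had 73.4, 62.7 and 54.1 CPM with GFP virus and 54.1, 40.0 and 31.9 CPM with Cre virus (-0.59, SE 0.22, adjusted p 0.0791). Ube2c, its E2 enzyme, had 43.6, 40.3 and 38.5 CPM with GFP virus and 40.8, 36.2 and 28.7 CPM with Cre virus (-0.21, SE 0.15, adjusted p 0.306). Mark3-KO replicate 1 met the WT range in both. With GC correction both turned positive, Cdc20 to 0.20 and Ube2c to 0.57. Of the exon bases of Ube2c, 592 (22.8%) are shared with Tnnc2 on the opposite strand, a muscle gene at 0.292 CPM with GFP virus and 0.0542 CPM with Cre virus. Cdc20 shares 53 exon bases with Elovl1, also on the opposite strand.

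Centromere and kinetochore genes held the member with the highest log2 fold change, Cenpb. CENP-B is the protein that binds a short DNA box in centromeric satellite repeats, and its gene lies on chromosome 2 at 131175182 to 131180067. Cenpb had 20, 20.5 and 13.0 CPM with GFP virus and 46.2, 59.7 and 34.4 CPM with Cre virus. The lowest Mark3-KO library stood above the highest WT library. Its log2 fold change was 1.39 (SE 0.26, adjusted p 0.0506), a fold of 2.62. With GC correction it rose by 2.32 on the log2 scale (SE 0.22), with an edgeR adjusted p of 0.0145, against a range of 0.00234 to 0.29 over all edgeR fits. At 56.3% GC its transcript was the richest of the members, and it was the only one above 50% GC that was higher in every Mark3-KO library. Cenpb shares 20 exon bases with Spef1 on the same strand. Spef1 had 14.8, 4.56 and 4.26 CPM with GFP virus and 9.06, 4.90 and 6.20 CPM with Cre virus (-0.23), with no separation of the groups.

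The NDC80 complex, the rod by which kinetochores grip microtubules, has 4 subunits, and 3 of them were higher without overlap, as were 25.8% of all genes and 58.6% of all genes under 45% GC, the range in which these 3 transcripts lie. Nuf2 (chromosome 1, 169497934 to 169531464) had 38.9, 44.6 and 38.0 CPM with GFP virus and 61.7, 67.3 and 70.2 CPM with Cre virus (0.71, SE 0.11, adjusted p 0.0506). It had the smallest unadjusted p of all members, 0.000419. Spc25 was at 0.66 and Ndc80 at 0.48, while Spc24 was at -0.68 with overlapping groups and the lowest counts of the members (2.57 to 7.56 CPM). GC content separated them too: the transcripts of Nuf2, Ndc80 and Spc25 had 41.7 to 42.6% GC and that of Spc24 had 52.9%. Corrected values were 0.23 for Nuf2, 0.23 for Spc25, 0.04 for Ndc80 and -0.25 for Spc24. Cenpe, a kinetochore motor, and Cenpf, a large kinetochore protein, were higher without overlap at 0.55 and 0.68, and measured 0.14 and 0.28 after correction. Cenpa, the histone H3 variant that marks centromeres, stood at -0.01.

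Spindle motors and spindle proteins were higher without overlap in 4 of 5 cases, beside 25.8% of all genes. Under 45% GC, where the transcripts of Kif11, Hmmr and Nusap1 lie, 58.6% of all genes were higher without overlap. The median of these spindle genes, 0.37, became 0.15 with GC correction. Kif11, the motor that pushes spindle poles apart (chromosome 19, 37376403 to 37421859), had 86.4, 99.8 and 117 CPM with GFP virus and 138, 157 and 166 CPM with Cre virus (0.61, SE 0.14, adjusted p 0.0506). Hmmr, encoding a spindle protein also named RHAMM, had 76.3, 82.1 and 91.4 CPM with GFP virus and 111, 122 and 134 CPM with Cre virus (0.56, SE 0.11, adjusted p 0.0506). In both, all Mark3-KO libraries were above all WT libraries. Tpx2, which activates Aurora A at the spindle, and Nusap1, a microtubule bundler, were at 0.34 and 0.37, also without overlap. Kif2c, a motor that takes microtubules apart, was at 0.03 with overlap. GC correction brought Kif11 to 0.16, Hmmr to 0.09 and Nusap1 to -0.09, and left Tpx2 at 0.26.

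Genes of the central spindle and of cytokinesis were likewise higher without overlap in 4 of 5 cases, beside the same 25.8% of all genes. That share was 58.6% under 45% GC, where Prc1 and Ect2 lie, and 28.6% at 45 to 50% GC, where Anln and Kif23 lie. The median of the 5 genes, 0.36, became 0.07 with GC correction, with 3 values positive and 2 negative. Prc1, which bundles the midzone microtubules, had 131, 147 and 159 CPM with GFP virus and 181, 191 and 196 CPM with Cre virus (0.38, SE 0.10, adjusted p 0.0509). Ect2, the exchange factor that activates RhoA at the cleavage site, had 53.2, 57.6 and 65.5 CPM with GFP virus and 74.1, 81.2 and 87.2 CPM with Cre virus (0.46, SE 0.12, adjusted p 0.0506). The groups were separate for both, as they were for Anln, the anillin gene (0.36), and Kif23, a motor of the midzone (0.35). Kif20a, another midzone motor, overlapped at 0.10. With GC correction Prc1 was at -0.01, Ect2 at -0.07, Anln at 0.08 and Kif23 at 0.15. Prc1 shares 911 exon bases with Rccd1, and Kif20a shares 1271, 29.3% of its exons, with Cdc23, both on opposite strands.

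**Figure D2:**
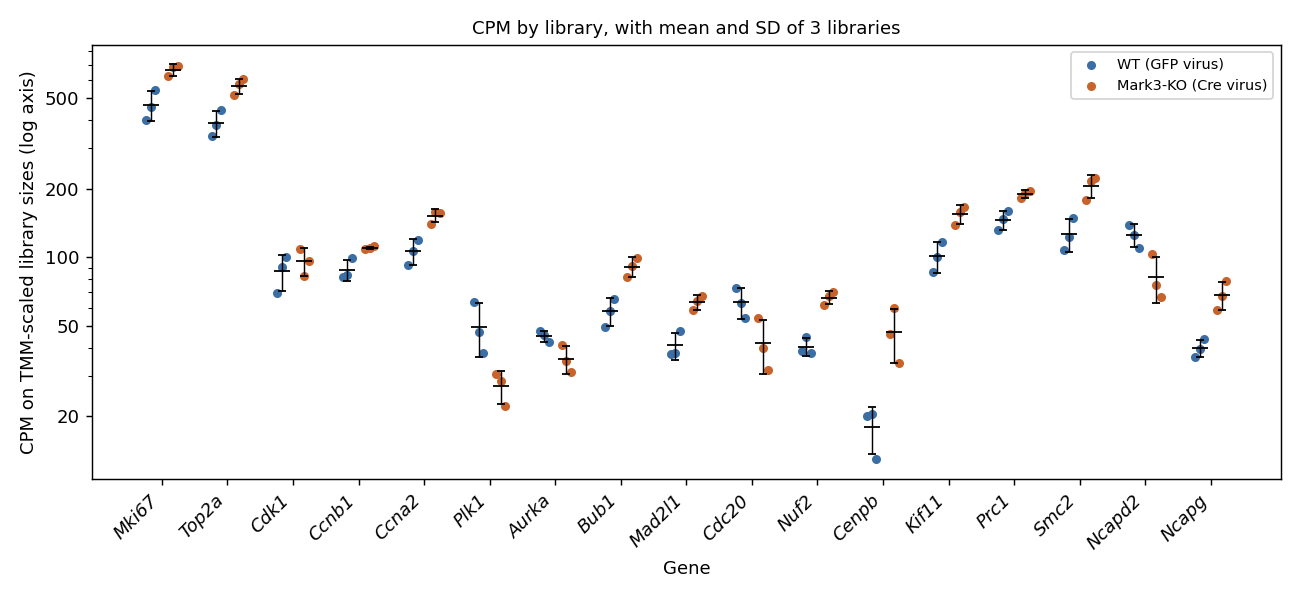
CPM on TMM-scaled library sizes (log axis) of 17 mitotic genes, with 1 point per library and bars for the mean and SD of 3 libraries per group (blue, WT; orange, Mark3-KO). Top2a lies at 341 to 442 CPM with GFP virus and 517 to 602 CPM with Cre virus, Ncapd2 lies lower in Mark3-KO, and the groups of Cdk1 and Cdc20 meet or overlap.

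Mki67 and Top2a, both in common use as markers of cycling cells, were higher in every Mark3-KO library than in any WT library. Of all genes 25.8% were likewise higher without overlap. That share was 28.6% at 45 to 50% GC, where Mki67 lies, and 58.6% under 45% GC, where Top2a lies. Mki67, encoding the Ki-67 protein that coats mitotic chromosomes (chromosome 7, 135689784 to 135716361), had 400, 456 and 539 CPM with GFP virus and 621, 683 and 689 CPM with Cre virus. Its mean went from 465 ± 70.0 to 664 ± 37.4 CPM (SD, n = 3 each), or 0.51 on the log2 scale (SE 0.13, adjusted p 0.0506). Top2a, topoisomerase II alpha, which untangles sister chromosomes (chromosome 11, 98992943 to 99024189), had 341, 379 and 442 CPM with GFP virus and 517, 573 and 602 CPM with Cre virus (0.54, SE 0.13, adjusted p 0.0506). Per kb of the longest transcript, Top2a was the most abundant member at 74.2 CPM per kb in WT and 108 in Mark3-KO, and Spc24 the least at 3.28 and 2.04. GC correction reduced Mki67 to 0.33 and Top2a to 0.15.

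Condensin, the ring that compacts mitotic chromosomes, showed both directions among subunits of the same complex. Smc2, 1 of its ATPase arms (chromosome 4, 52439243 to 52488260), had 107, 122 and 149 CPM with GFP virus and 178, 216 and 222 CPM with Cre virus (0.71, SE 0.15, adjusted p 0.0506). Ncapg, a regulatory subunit of condensin I, had 36.5, 39.7 and 43.6 CPM with GFP virus and 58.8, 67.4 and 78.2 CPM with Cre virus (0.77, SE 0.14, adjusted p 0.0506). Smc4, the other ATPase arm, was at 0.69. These 3 genes were higher without overlap, as were 25.8% of all genes and 58.6% of all genes under 45% GC, where these transcripts lie. Ncapd2, another regulatory subunit of condensin I chosen for its values, had 139, 125 and 110 CPM with GFP virus and 103, 75.1 and 67.1 CPM with Cre virus (-0.61, SE 0.18, adjusted p 0.0538). It was lower in every Mark3-KO library, as were 27.5% of all genes and 55.2% of all genes above 50% GC, where its transcript lies. Ncaph, the subunit that closes the ring, overlapped at 0.04. GC content of the transcripts was 34.8% for Ncapg, 39.7% for Smc2, 40.2% for Smc4, 48.3% for Ncaph and 54.0% for Ncapd2. After correction the 5 subunits lay between -0.05 (Ncapd2) and 0.16 (Smc2 and Smc4). Ncapg shares 944 exon bases with Lcorl on the opposite strand (log2 fold change 0.64), and Ncapd2 shares 237 with the small RNA gene Scarna10 on its own strand.

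**Figure D3:**
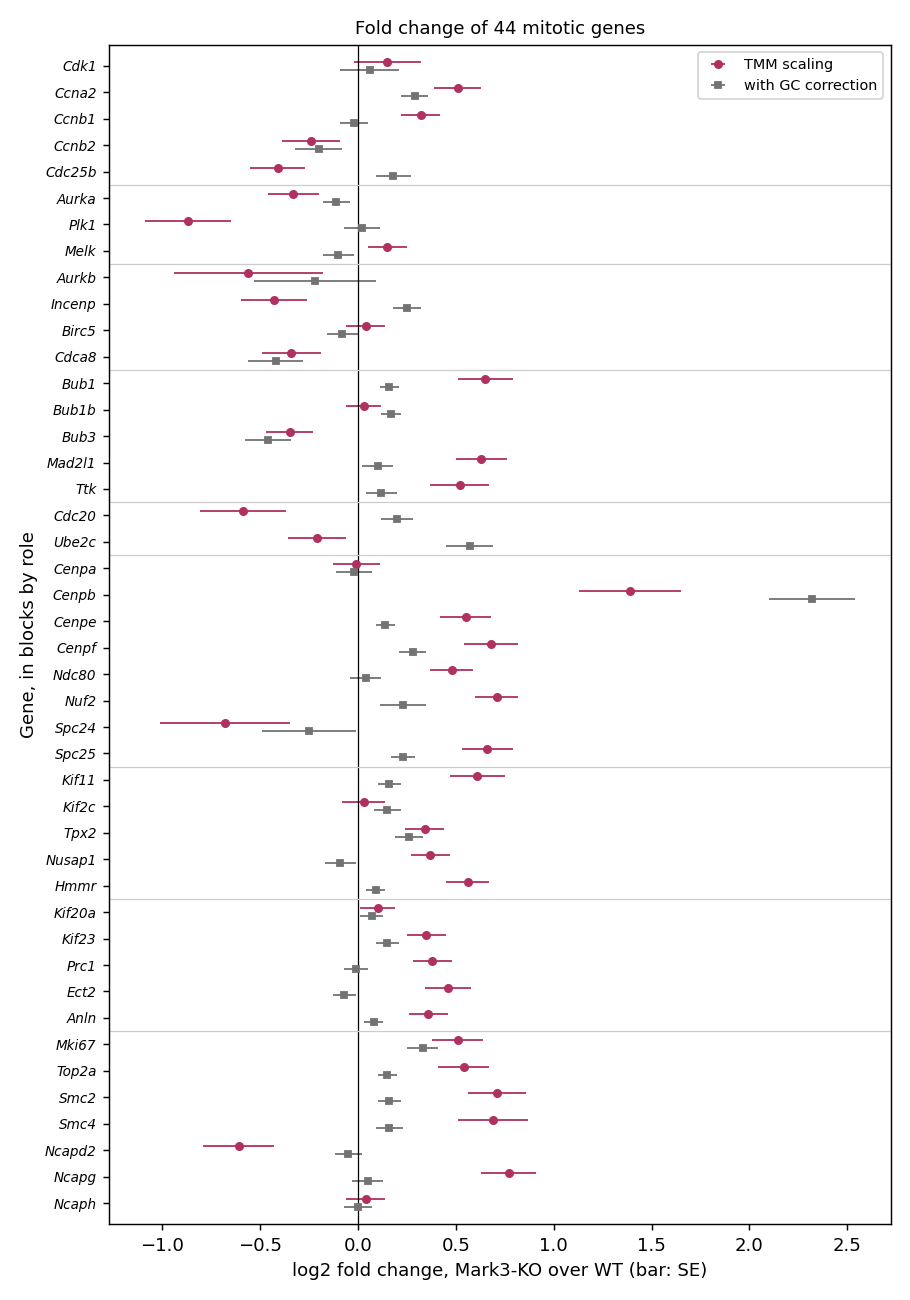
Log2 fold change of Mark3-KO over WT for the 44 genes in blocks by role, with bars for the SE (red circles, TMM scaling; grey squares, with GC correction). Ncapd2 moves from -0.61 to -0.05 and Smc2 from 0.71 to 0.16, whereas Cenpb moves from 1.39 to 2.32.

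Direction among the members differed with transcript GC content. All 18 members under 45% GC, among them Bub1, Nuf2, Kif11, Top2a and Smc2, were higher in Mark3-KO without overlap, with a median log2 fold change of 0.58. Of all tested genes in that range 58.6% were higher without overlap, and 75.2% of those with a mean of at least 10 CPM, with a median of 0.48 over the whole range. Between 45 and 50% GC, 6 of 14 members were higher, 1 was lower (Bub3) and 7 overlapped, at a median of 0.12 beside 0.15 for all genes. Of all genes in this range 28.6% were higher and 10.4% lower without overlap, and 35.3% and 14.6% of those that averaged 10 CPM or more. Above 50% GC, 1 of 12 was higher (Cenpb), 4 were lower (Plk1, Aurka, Cdc25b and Ncapd2) and 7 overlapped, at a median of -0.42 beside -0.58 for all genes. Of all genes in this range 2.74% were higher and 55.2% lower without overlap, and 2.44% and 72.2% of those averaging 10 CPM or more, a level that 11 of the 12 members reached. Across the 44 members the Pearson r of log2 fold change with GC content was -0.71, and across 18965 tested genes with a GC value it was -0.72. These r values are across genes, which share the same libraries and are not independent replicates.

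Set beside genes of nearly the same GC content (windows of 2 percentage points), 32 of the 44 members lay within the middle 50% of log2 fold changes, 9 lay above it and 3 below. Above were Ccna2, Ube2c, Cenpb, Cenpf, Nuf2, Spc25, Kif11, Mki67 and Smc4, and below were Ccnb2, Cdca8 and Bub3. With GC correction 31 lay within, 9 above and 4 below. In the corrected fit r with GC content was 0.22 for members and -0.02 for all genes. Cenpb alone passed the adjusted threshold there (0.379% of all genes passed), 15 members were higher and 2 lower at an unadjusted p under 0.05 (12.5% and 13.8% of all genes), and 20 were higher and 3 lower without overlap (16.2% and 17.1%). The sign of 11 members turned with the correction: Ccnb1, Cdc25b, Plk1, Melk, Incenp, Birc5, Cdc20, Ube2c, Nusap1, Prc1 and Ect2. Per library, the members' median log2 ratio was -0.29, -0.18 and -0.04 with GFP virus and 0.14, 0.18 and 0.18 with Cre virus before correction. After it these were -0.07, -0.05 and -0.02 with GFP virus and 0.09, 0.08 and -0.01 with Cre virus.

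**Figure D4:**
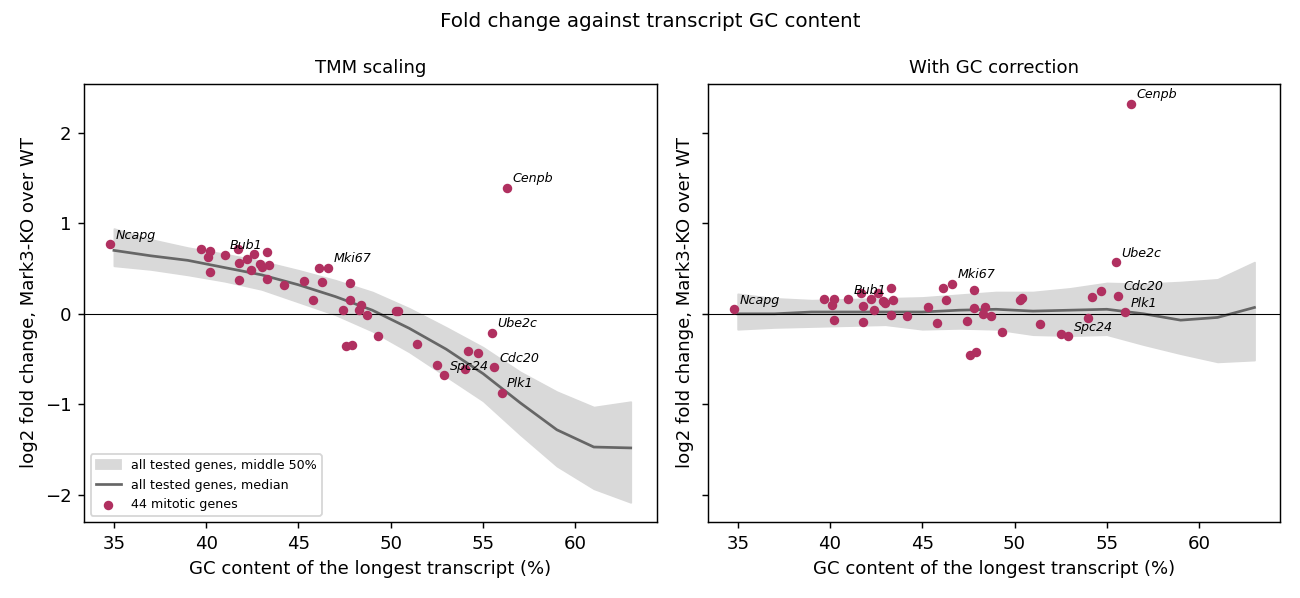
Log2 fold change of Mark3-KO over WT against GC content (%) of the longest transcript, with TMM scaling (left) and with GC correction (right). Points are the 44 mitotic genes, and the line and band are the median and middle 50% of all tested genes in windows of 2 percentage points. Most points follow the line (32 within the band on the left), Cenpb stands at 1.39 and 2.32, and the line lies near 0 on the right.

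Other genes of the same pathways were measured as 138 genes in 8 lists, and none passed in edgeR's quasi-likelihood test. At an unadjusted p under 0.05, 64 were higher and 35 lower (20.8% and 24.8% of all genes). The DESeq2 Wald test called 54 higher and 32 lower (13.9% and 23.7% of all genes). Without overlap 73 were higher and 33 lower, where the shares over all genes were 25.8% and 27.5%, so that the count of lower genes was close to the background. The median log2 fold change of the 138 was 0.26, or 0.06 with GC correction. Of 14 cohesin and separase genes 11 were higher and 1 lower without overlap (again beside 25.8% and 27.5%), at a median of 0.50. Their median GC content was 42.4%, and under 45% GC 58.6% of all genes were higher and 1.51% lower without overlap. Sgo1 and Sgo2a, protectors of centromeric cohesion, were at 0.69 and 0.65. After correction the median of this list was 0.08. Of 32 other centromere and kinetochore genes, 21 were higher and 4 lower without overlap (25.8% and 27.5% of all genes), and their median of 0.32 became 0.07 with GC correction. Knl1 and Mis12, which with NDC80 form the microtubule-binding core of the kinetochore, were at 0.84 and 0.74. GC correction brought Knl1 to 0.20. Mis12 had 36.9, 37.4 and 40.9 CPM with GFP virus and 58.4, 64.7 and 68.9 CPM with Cre virus. It passed in the GC-corrected fit (log2 fold change 0.47, edgeR adjusted p 0.0473, range 0.00275 to 0.29 over all edgeR fits).

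The spindle and cytokinesis list had 16 of 32 genes higher and 10 lower without overlap (25.8% and 27.5% of all genes), the lower ones close to the background. Its log2 fold changes ran from -1.61 to 0.96, at a median of 0.21 (0.06 corrected). Named for the smallest p were Cep55, an organiser of abscission, at 0.96 (0.61 corrected) and Aspm, a spindle pole protein, at 0.59 (0.25 corrected). Condensin II showed both directions, as condensin I did, with Ncapg2 at 0.56 (0.22 corrected) and Ncaph2 at -0.88 (-0.07 corrected). Among 15 regulators of mitotic entry 7 were higher and 3 lower without overlap (25.8% and 27.5% of all genes), including Mastl, the Greatwall kinase, at 0.71 (0.21 corrected) and Cdca3 at -0.79 (-0.61 corrected). Values of these regulators ran from -2.37 to 0.75, at a median of 0.05, and from -1.35 to 0.53 with GC correction, at a median of 0.04. The APC/C list, of subunits together with Fzr1, Ube2s and Fbxo5, had a median of -0.17. Of its 17 genes, 6 were higher and 8 lower without overlap (25.8% and 27.5% of all genes). With GC correction the median of the APC/C list was -0.06. In that edgeR fit 2 of its genes were higher and 6 lower at an unadjusted p under 0.05 (12.5% and 13.8% of all genes). Within the list Cdc27, a scaffold subunit, stood at 0.67 (0.11 corrected) and Anapc16, a small subunit, at -0.51 (-0.83 corrected). Anapc16 had 46.5, 43.8 and 39.7 CPM with GFP virus and 32.7, 28.4 and 30.4 CPM with Cre virus, without overlap (edgeR adjusted p 0.0506).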

How the data were processed

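RNA of 6 libraries (TruSeq RNA Library Prep Kit v2, which does not mark strand) was counted per gene. The authors deposited whole-number counts for 51912 Ensembl gene IDs. The tools were HISAT2 2.0.5, StringTie, FastQC and DESeq2 and the build GRCm38, per the submitters' processing notes. Their order, settings and annotation, and the treatment of shared reads, are not given in the sources used here. Of the IDs, 51719 matched GENCODE M21, which gave symbols, coordinates, and the length and GC content of the longest transcript, and 193 did not.

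Totals ran from 56925883 to 71445243 counts per library, and no pair of libraries was a copy of another. Counts were tested with edgeR 4.0.16 (R 4.3.3): filterByExpr (19017 genes), TMM, the quasi-likelihood test with group as the only term, and Benjamini-Hochberg adjustment over all tested genes with a threshold of 0.05. Each SE was derived from the log2 fold change and its F statistic (the change divided by the root of F). The procedure was tested on simulated data for the same comparison (18740 genes), where it recovered 82% of genes raised 2-fold and called 0.0485% of unchanged genes. The simulated counts were independent, with a dispersion of 0.02 in every gene and no trend with GC content. These rates therefore need not hold for the deposited counts, which have such a trend.

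Other settings were scaling by library size alone or by DESeq2 size factors, limma-voom (limma 3.58.1), the Wald test of DESeq2 1.42.0, no filter, a minimum of 1 CPM in 3 libraries, a block for replicate number, a GC correction (natural spline with 6 degrees of freedom per library, as offset), that correction with the block, and leaving out each library. A fit without WT replicate 1 and Mark3-KO replicate 3 and a threshold of 0.1 were chosen after seeing the data. The members, lists and tests were chosen with earlier results of these data known. Values per library are given for Mki67, Top2a, Cdk1, Ccnb1 and the 2 members with the smallest p in each of 9 role groups, and up to 2 genes are named from each list of other mitotic genes. Outside this rule, values per library are also given for Mark3, Spef1, Mis12, Anapc16, E2f4, Lin9, Ccng1 and Cdkn2a. The remaining genes are given by log2 fold change or named as chosen for their values.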

Additional observations from a re-analysis of the deposited data

How the results depend on the processing

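The number of members past the threshold depended on the processing, while the sign of most log2 fold changes did not. From 0 higher and 0 lower, the members called were 24 and 1 with library size alone, 23 and 4 with the DESeq2 Wald test, 24 and 2 with the filter of 1 CPM in 3 libraries, 1 and 0 with GC correction, and 24 and 7 at an adjusted p of 0.1. Leaving out 1 library gave 0 to 24 higher and 0 to 6 lower. The other 138 mitotic genes went from 0 and 0 to 52 and 18 (library size alone), 54 and 32 (DESeq2 Wald test), 57 and 25 (1 CPM filter), 1 and 0 (GC correction) and 62 and 34 (adjusted p of 0.1), with 0 to 54 higher and 0 to 33 lower when 1 library was left out. Shares of all genes higher and lower were 11.5% and 12.2% with library size alone and 13.9% and 23.7% with the DESeq2 Wald test. They were 16.1% and 21.3% with the 1 CPM filter, 0.0841% and 0.294% with GC correction and 19.7% and 24% at 0.1. Leaving out 1 library gave up to 12.9% and 20%. The counts of lower genes among the 138 were close to these shares. All genes called went from 41 to 4510, 6351, 5266, 72 and 8317 in the same order, to 27 with limma-voom, and to between 0 and 6460 without 1 library. Of the 41, 9 were higher and 32 lower, against 2190 and 2320 with library size alone. Without WT replicate 2 edgeR called 0 genes (5929 at an unadjusted p under 0.05), and without both WT replicate 1 and Mark3-KO replicate 3 it again called 0 (3258 at an unadjusted p under 0.05). The cause of these shifts was not tested. The smallest adjusted p of the members, 0.0506, lay close to the threshold. The Benjamini-Hochberg adjustment gave it to members with an edgeR unadjusted p from 0.000419 (Nuf2) to 0.00641 (Ect2). Members that share 1 adjusted value pass or miss the threshold together. Library size alone raised the median of all genes from 0.02 to 0.13 and that of members from 0.35 to 0.46, and turned the sign of Cenpa. GC correction lowered the members' median to 0.10 (with the block also 0.10). Signs turned with GC correction for Ccnb1 (-0.02), Plk1 (0.02), Incenp (0.25), Cdc20 (0.20), Ube2c (0.57), Ect2 (-0.07) and Prc1 (-0.01), among the genes given per library. Depth limited few members: only Spc24 had a mean under 10 CPM (SE 0.33).

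Whether the replicate numbers pair the samples could not be decided. Deviations from the group means of same-numbered libraries correlated at 0.33, -0.03 and 0.29 over genes, and those of other pairs at -0.35 to 0.09. Not every library correlated best with its own number. Deviations from a mean of 3 libraries are tied to each other, so these values cannot exclude pairing. With the replicate block 24 members were called higher and 9 lower, other mitotic genes 67 and 39, and all genes 8487 (44.6%, with 19.9% higher and 24.7% lower). With GC correction and the replicate block these were 2 and 2, 5 and 14, and 1592 (8.37%), and the same signs turned (Prc1 to -0.02).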

Other observations

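Regulators that stand above the mitotic program made up 2 of the 8 lists of other mitotic genes, and edgeR's quasi-likelihood test called no gene of either. Of the 13 genes of the DREAM and MuvB complexes, which repress and then activate the late cell cycle genes, 6 were higher and 4 lower in Mark3-KO without overlap, and 5 and 4 had an unadjusted p under 0.05. Over all genes the shares were 25.8% and 27.5% without overlap and 20.8% and 24.8% at that p, so that the lower genes were close to the background. E2f4, a repressive E2F factor, had 49.4, 42.0 and 33.9 CPM with GFP virus and 26.2, 20 and 16 CPM with Cre virus (log2 fold change -1.01, SE 0.22, adjusted p 0.0506). Lin9, a subunit of the MuvB core, had 10.7, 11.7 and 13.9 CPM with GFP virus and 17.6, 19.3 and 18.8 CPM with Cre virus (0.62, SE 0.14, adjusted p 0.0506). The groups were separate for both genes. After GC correction E2f4 was at -0.14 and Lin9 at 0.20. Foxm1 and Mybl2, the activators that work with MuvB, named after their values were seen, had log2 fold changes of -0.40 and -0.97, and of 0.27 and -0.07 after correction.

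CDK inhibitors and cell cycle exit genes, 12 in all, had 4 higher and 2 lower without overlap (25.8% and 27.5% of all genes), near or below the background, and a median of -0.07 (0.05 corrected). Ccng1, a p53 target encoding cyclin G1, had 796, 828 and 994 CPM with GFP virus and 1100, 1250 and 1410 CPM with Cre virus (0.52, SE 0.14, adjusted p 0.0506), with the groups separate. GC correction brought it to 0.01. Cdkn2a, which encodes the inhibitor p16INK4a and ARF, was low, at 5.01, 3.63 and 1.36 CPM with GFP virus and 1.26, 0.537 and 0.553 CPM with Cre virus (-2.07, SE 0.56, adjusted p 0.0509). Its highest Mark3-KO library lay just under its lowest WT library. After GC correction it measured -0.68.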
